A study of Mus musculus with 2 samples.

Results

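Transcripts of 10 genes that hold back or report on the cell cycle were counted in every class of cells of mouse fracture callus: the 7 CDK inhibitors Cdkn1a, Cdkn1b, Cdkn1c, Cdkn2a, Cdkn2b, Cdkn2c and Cdkn2d, and the p53 targets Mdm2, Ccng1 and Gdf15. All 10 were found by symbol among the 32285 genes of both single-cell RNA-seq matrices. The callus, the repair tissue around a healing femoral fracture, came from wild-type C57BL/6J mice, and the design covered calluses at 10 days post fracture (n = 5) and at 20 days (n = 5). The labels name the libraries MGJ and MGJ2 but give neither a day, the mice cannot be told apart by barcode, and so the libraries are described side by side and were not compared.

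Cyclin-dependent kinases (CDKs) drive a cell through its division cycle, and CDK inhibitors stop them. The Cip/Kip inhibitors, Cdkn1a (p21), Cdkn1b (p27) and Cdkn1c (p57), bind complexes of cyclins with several CDKs, whereas the INK4 inhibitors, Cdkn2a (p16), Cdkn2b (p15), Cdkn2c (p18) and Cdkn2d (p19), bind Cdk4 and Cdk6. The transcription factor p53 switches on Cdkn1a after stress, together with Mdm2, which marks p53 itself for destruction, Ccng1, a cyclin-like partner of Mdm2, and Gdf15, a secreted stress hormone. In the growth plate, chondrocytes leave the cell cycle as they enlarge and begin to express Col10a1, the collagen of hypertrophic cartilage, and p57 is known as an inhibitor needed for that exit.

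Levels are given as CPM, the UMIs of a gene (unique molecular identifiers, one per captured RNA molecule) scaled to 1000000 UMIs summed over the cells of a class, with an exact Poisson 95% interval. Ratios of levels carry an exact conditional binomial interval and shares of cells a Clopper-Pearson interval. All of these intervals cover counting error only, because each library stands alone and there was no test. Library MGJ held 13460 cells after filtering, with 17 classes of at least 50 cells, and MGJ2 held 7583 cells, with 14 such classes. Chondrocyte-like cells numbered 2478 in MGJ and 134 in MGJ2. All 17 chondrocyte markers were detected in the chondrocyte-like sub-clusters, and Col2a1, the main cartilage collagen, stood at 55807 CPM in the chondrocyte-like cells of MGJ. Doublets could be called and removed in MGJ2 alone, and 19 barcodes occurred in both libraries. Another 2224 cells of MGJ (16.5%) and 39 of MGJ2 were left unnamed. In those of MGJ, Cdkn1a stood at 627 CPM, Cdkn1c at 181 CPM and Col2a1 at 24077 CPM. They included 1386 cells of low depth that scored highest for neutrophil markers. They also included sub-clusters of 222, 88, 228 and 44 cells that scored highest for chondrocyte markers. Unnamed cells counted among all other cells where chondrocyte-like cells were set against these.

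**Figure D1:**
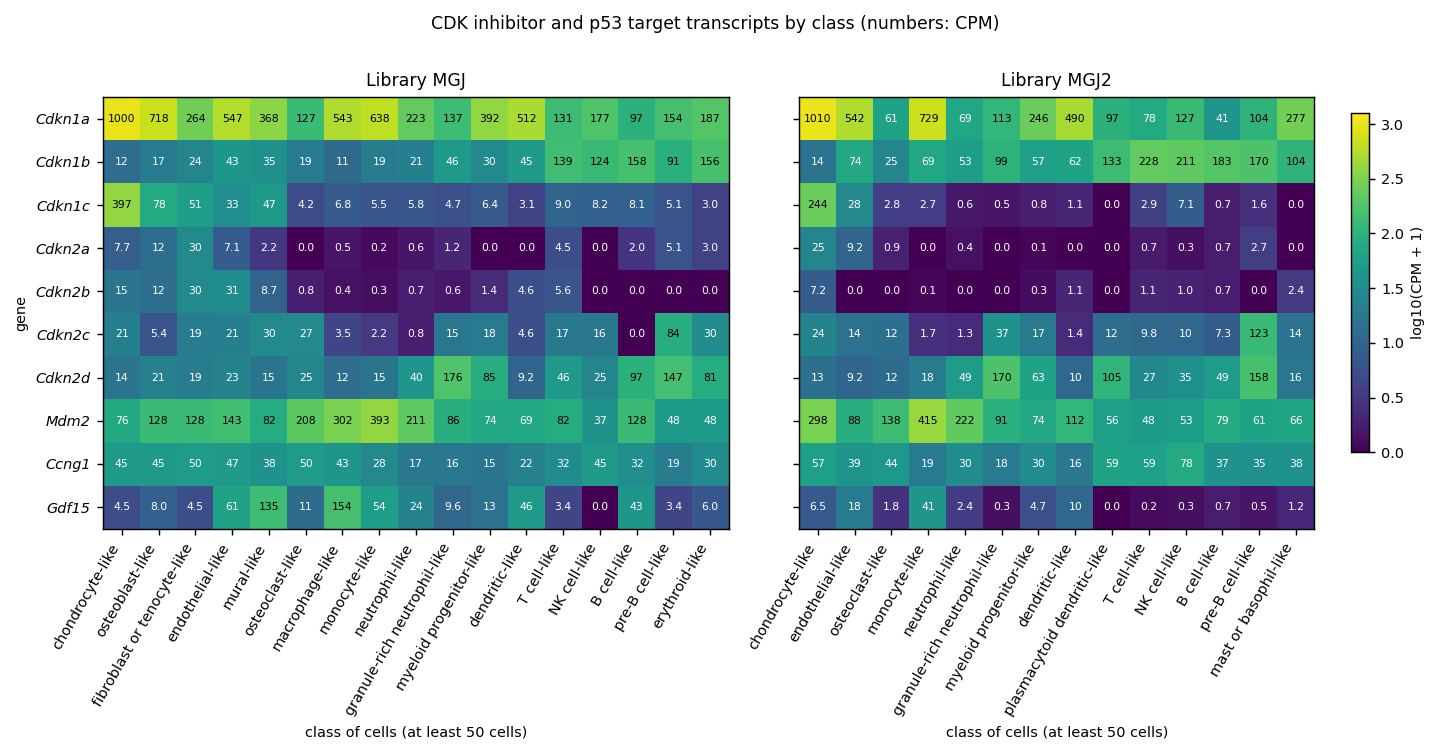
Levels of the 10 genes (rows) in each class of at least 50 cells (columns) in libraries MGJ and MGJ2; the numbers in the tiles are CPM and the shading shows each level on a log scale. With classes named by cluster, the chondrocyte-like column holds the highest Cdkn1a and Cdkn1c of both libraries, and the highest Cdkn2d lies in granule-rich neutrophil-like cells.

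Cdkn1a, the p21 gene and the best known p53 target, was highest in chondrocyte-like cells of both libraries when classes were named by cluster. With each cell named by its own highest marker score, chondrocyte-like cells ranked second in MGJ for both Cdkn1a and Cdkn1c and stayed first in MGJ2. Cdkn1a stood there at 1000 CPM (992 to 1009) in MGJ and at 1010 CPM (979 to 1041) in MGJ2. In MGJ the next classes were osteoblast-like cells at 719 CPM (659 to 782), monocyte-like cells at 638 CPM (622 to 654) and endothelial-like cells at 547 CPM (520 to 575). The chondrocyte-like level exceeded the osteoblast-like one 1.39-fold (1.28 to 1.52), and the intervals of these classes did not overlap. In MGJ2 monocyte-like cells, mostly of another cluster than those of MGJ, came second at 729 CPM (716 to 743), 1.39-fold (1.34 to 1.44) under the chondrocyte-like level. B cell-like cells were lowest in both libraries, with 97.3 CPM in MGJ and 40.8 CPM in MGJ2. Along the order of the 17 classes of MGJ, 10 of the 16 pairs of neighbours had ratios whose interval included 1, so that much of the middle of the order was not resolved. After each cell was thinned to 2000 UMIs, a Cdkn1a UMI was found in 73.7% (71.9 to 75.4) of chondrocyte-like cells of MGJ and 72.4% (64 to 79.76) of those of MGJ2, beside 7.59% (2.84 to 15.8) and 3.97% (2.65 to 5.68) of B cell-like cells. Without thinning the chondrocyte-like shares were 96.5% and 94.03%, at median depths of 21108 and 28974 UMIs per cell, and those of B cell-like cells 8.0% and 7.11%, at 1727 and 3086 UMIs. Thinning left out 146 of the 225 B cell-like cells of MGJ.

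Cdkn1a lies on chromosome 17 at 29090976-29100727 on the forward strand (GRCm38), and RefSeq lists 2 transcription starts for it. The window around the upstream start, 250 bases before to 50 bases after it (GRCm38.p6, chr17:29090729-29091028, forward strand), is shown because it was the single window of these genes with a complete p53 site, at most 1 base off the motif. Capitals mark matches to the 10-base p53 motif, searched on both strands, and the complete site. The longer run of capitals is that site, a pair of adjacent copies, of which the latter is 1 base off the 10-base motif.
Cdkn1a upstream start: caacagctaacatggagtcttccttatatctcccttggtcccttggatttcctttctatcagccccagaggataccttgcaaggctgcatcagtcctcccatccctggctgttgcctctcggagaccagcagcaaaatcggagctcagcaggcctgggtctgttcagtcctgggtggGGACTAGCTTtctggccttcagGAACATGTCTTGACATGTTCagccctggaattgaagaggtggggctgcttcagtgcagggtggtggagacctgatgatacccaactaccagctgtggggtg
The complete site began 51 bases before the start and differed from the motif at 1 of its 20 bases. Such a site, with at most 1 base off, occurred in 18 of the 32851 RefSeq windows of the same length (0.0548%), and the 10-base motif alone in 2745 windows (8.36%). For 9 of the 10 genes a window was found, 13 windows in all, and the 10-base motif was in 4 of them, those of Cdkn1a, Cdkn2d, Mdm2 and Ccng1. Among 23 other p53 targets, 15 had windows, and 6 of their 20 windows (30%) held the 10-base motif while 0 held a complete site. These letters describe the windows only, and no binding was measured here.

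Cdkn1b, the p27 gene, was highest in lymphocytes and erythroid cells and low in cartilage. In MGJ it reached 158 CPM (125 to 197) in B cell-like, 156 CPM (117 to 205) in erythroid-like, 139 CPM (116 to 166) in T cell-like and 124 CPM (83.4 to 176) in NK cell-like cells, levels whose intervals overlapped. In MGJ2 it reached 228 CPM (214 to 242) in T cell-like and 211 CPM (195 to 228) in NK cell-like cells. Chondrocyte-like cells held 11.8 CPM (10.9 to 12.8) in MGJ, rank 16 of 17 classes, and 14.2 CPM (10.7 to 18.4) in MGJ2, the lowest of 14. Against all other cells, the chondrocyte-like level was 0.443-fold (0.404 to 0.484) in MGJ and 0.145-fold (0.110 to 0.189) in MGJ2.

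Cdkn1c, the p57 gene, an imprinted inhibitor, was the member most concentrated in cartilage. It lies on chromosome 7 at 143458339-143461050 (reverse strand), with the annotated antisense gene Gm44732 across it on the other strand. Chondrocyte-like cells held 397 CPM (391 to 402) in MGJ, 5.11-fold (3.95 to 6.73) the next class, osteoblast-like cells at 77.6 CPM (58.9 to 100). Fibroblast or tenocyte-like cells held 51.5 CPM (48.3 to 54.7) and mural-like cells 47.0 CPM (36.3 to 59.95). In MGJ2 chondrocyte-like cells held 244 CPM (229 to 260), 8.82-fold (5.03 to 17.1) the endothelial-like level of 27.7 CPM (14.3 to 48.4). The 12 blood-cell classes of MGJ had levels of 0.759% to 2.28% of the chondrocyte-like one, and those of MGJ2 0% to 2.92%. Col2a1, a cartilage transcript that blood cells do not make, stood at 0.631% to 9.55% of its chondrocyte-like level in the same classes of MGJ and at 0.0399% to 0.306% in those of MGJ2. The part of free RNA in the low Cdkn1c of blood cells was not tested. After thinning to 2000 UMIs, 33.9% (32.1 to 35.9) of chondrocyte-like cells of MGJ had a Cdkn1c UMI, beside 8.33% (6.80 to 10.1) of fibroblast or tenocyte-like and 0.790% (0.395 to 1.41) of neutrophil-like cells. The neutrophil-like share is the background to read the others against, although 1845 neutrophil-like cells under 2000 UMIs were left out of it and their median depth was 1854 UMIs. Unthinned, the same shares were 65.6%, 33.9% and 1.27%.

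Cdkn2a and Cdkn2b, neighbours on chromosome 4, had their highest levels in MGJ in skeletal and vascular classes, with few UMIs in any blood-cell class. Cdkn2a (89274471-89294653, reverse strand) has 2 starts that give the p16 and p19ARF transcripts. Both starts share the downstream exons, so UMIs read from the 3′ end do not separate the inhibitor p16 from ARF, which binds Mdm2. The windows around both starts are shown because the values below sum over them (GRCm38.p6, reverse strand, chr4:89282143-89282442 for the downstream start and chr4:89294570-89294869 for the upstream one). Neither held the 10-base p53 motif, so no base is in capitals.
Cdkn2a downstream start: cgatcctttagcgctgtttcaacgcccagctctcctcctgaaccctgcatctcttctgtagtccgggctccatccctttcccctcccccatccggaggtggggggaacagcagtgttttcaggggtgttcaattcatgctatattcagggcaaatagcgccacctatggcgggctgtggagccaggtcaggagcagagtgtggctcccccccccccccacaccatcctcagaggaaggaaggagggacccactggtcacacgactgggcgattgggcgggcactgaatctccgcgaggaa
Cdkn2a upstream start: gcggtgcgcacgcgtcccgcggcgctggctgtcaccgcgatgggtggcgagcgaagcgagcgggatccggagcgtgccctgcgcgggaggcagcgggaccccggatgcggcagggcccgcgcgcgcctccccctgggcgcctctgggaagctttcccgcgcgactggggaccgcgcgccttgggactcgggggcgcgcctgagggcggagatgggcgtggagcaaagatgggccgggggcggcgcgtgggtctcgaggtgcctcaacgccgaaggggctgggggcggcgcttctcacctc

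Cdkn2a was highest in fibroblast or tenocyte-like cells of MGJ, at 29.8 CPM (27.4 to 32.3), 2.47-fold (1.29 to 5.43) the osteoblast-like level of 12.0 CPM (5.51 to 22.9). Chondrocyte-like cells held 7.70 CPM (6.97 to 8.49) and endothelial-like cells 7.07 CPM (4.32 to 10.9), which overlapped. The order below them was not resolved: pre-B cell-like cells held 5.14 CPM (1.06 to 15.03) from 3 UMIs, T cell-like cells 4.52 CPM (1.23 to 11.6) from 4 UMIs and mural-like cells 2.17 CPM (0.448 to 6.34) from 3 UMIs. Of the 17 classes, 4 had 0 UMIs; in osteoclast-like cells the limit that a count of 0 allows, 3 counts, was 1.27 CPM. In MGJ2 the chondrocyte-like level was 24.6 CPM (20.01 to 29.97), rank 1 of the 14 classes. The 17 fibroblast or tenocyte-like cells of MGJ2, too few for a class, held 18 UMIs, or 105 CPM (62.0 to 165). After thinning to 2000 UMIs, 5.73% (4.46 to 7.23) of fibroblast or tenocyte-like cells and 1.68% (1.21 to 2.27) of chondrocyte-like cells of MGJ had a Cdkn2a UMI, beside 0 of 1306 monocyte-like cells. Unthinned, these shares were 19.6%, 10.3% and 0.143%.

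Cdkn2b, at 89306299-89311039 on chromosome 4, stood at 30.8 CPM (24.6 to 37.9) in endothelial-like and 29.6 CPM (27.2 to 32.1) in fibroblast or tenocyte-like cells of MGJ, a ratio of 1.04 (0.821 to 1.31), so that their order was not resolved. Chondrocyte-like cells held 14.6 CPM (13.6 to 15.7). In MGJ2 only 54 Cdkn2b UMIs were counted in all, of which 29 were in chondrocyte-like cells, at 7.21 CPM (4.83 to 10.4). The next class was mast or basophil-like cells with 2 UMIs, a ratio of 3.02 (0.765 to 26.1) that was not resolved. Endothelial-like cells of MGJ2 had 0 UMIs, which allowed up to 6.92 CPM at their depth.

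Cdkn2c, the p18 gene (chromosome 4, 109660876-109667189), was highest in pre-B cell-like cells, at 84.0 CPM (62.1 to 111) in MGJ and 123 CPM (108 to 140) in MGJ2. These were 2.79-fold (1.40 to 6.18) and 3.34-fold (2.76 to 4.04) the next classes, erythroid-like cells in MGJ and granule-rich neutrophil-like cells in MGJ2. Chondrocyte-like cells held 20.6 CPM (19.4 to 21.9) in MGJ and 23.6 CPM (19.1 to 28.9) in MGJ2. Neutrophil-like cells held 0.842 CPM (0.309 to 1.83) and 1.31 CPM (0.528 to 2.71), among the lowest levels of both libraries.

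Cdkn2d, the p19INK4d gene (chromosome 9, 21288410-21291407), was highest in granule-rich neutrophil-like cells, at 176 CPM (162 to 191) in MGJ and 170 CPM (160 to 181) in MGJ2. Pre-B cell-like cells followed at 147 CPM (118 to 182) and 158 CPM (141 to 177), and the order of these classes was not resolved in either library. Chondrocyte-like cells were near the bottom, at 14.4 CPM (13.4 to 15.5) in MGJ, rank 15 of 17, and 12.9 CPM (9.66 to 16.95) in MGJ2, rank 11 of 14. Cdkn2d and Cdkn2c were both lower in the other neutrophil-like cells than in the granule-rich ones, which hold the transcripts of granule proteins. Cdkn2d stood at 40.1 CPM (35.6 to 45.1) in the neutrophil-like cells of MGJ and at 49.3 CPM (43.6 to 55.7) in those of MGJ2. The granule-rich level was 4.39-fold (3.81 to 5.07) and 3.45-fold (3.01 to 3.97) higher for Cdkn2d, and 18.4-fold (7.91 to 52.3) and 28.1-fold (13.4 to 70.7) higher for Cdkn2c. Cycling cells made up 31.9% and 33.1% of granule-rich neutrophil-like cells, and 0.0927% of the neutrophil-like cells of MGJ.

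Mdm2, whose product targets p53 for degradation (chromosome 10, 117688875-117710758), was highest in monocyte-like cells, at 393 CPM (381 to 406) in MGJ and 415 CPM (404 to 425) in MGJ2. The name covers largely different clusters in the libraries. In MGJ 1283 of the 1402 monocyte-like cells came from a cluster with Arg1 and Cxcl3 among its leading genes. In MGJ2 1588 of the 1639 came from a cluster with Cd83 and Cx3cr1 among them. Macrophage-like cells of MGJ followed at 302 CPM (290 to 314), 1.30-fold (1.24 to 1.37) lower. The chondrocyte-like level was 76.3 CPM (73.9 to 78.7) in MGJ, rank 12 of 17, and 298 CPM (281 to 315) in MGJ2, rank 2 of 14. Mdm2 and Cdkn1a thus ranked differently across the classes of MGJ. B cell-like cells, the lowest in Cdkn1a, held 128 CPM (98.2 to 163) of Mdm2, above the chondrocyte-like level. In MGJ2 B cell-like cells were again lowest in Cdkn1a but held 78.7 CPM (68.6 to 89.95) of Mdm2, below the chondrocyte-like level.

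Ccng1 (chromosome 11, 40748552-40755311) was the most even of the 10 in MGJ. Its classes ran from 15.2 CPM (11.1 to 20.3) in myeloid progenitor-like to 49.9 CPM (41.3 to 59.8) in osteoclast-like cells, and none of the 16 pairs of neighbours in that order was resolved. Chondrocyte-like cells held 45.0 CPM (43.2 to 46.8). In MGJ2, NK cell-like cells held the highest Ccng1 level, 78.2 CPM (68.4 to 89.0), and chondrocyte-like cells 56.9 CPM (49.8 to 64.8).

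Gdf15 (chromosome 8, 70629393-70632456) was highest in macrophage-like and mural-like cells of MGJ. In MGJ macrophage-like cells held 154 CPM (146 to 163), mural-like cells 135 CPM (117 to 156), endothelial-like cells 60.8 CPM (52.1 to 70.6) and monocyte-like cells 54.0 CPM (49.5 to 58.8). The mural-like and macrophage-like levels were not resolved, with a ratio of 1.14 (0.976 to 1.33). In MGJ2 monocyte-like cells led the classes at 40.6 CPM (37.4 to 44.0), and the 22 macrophage-like cells, too few for a class, held 103 UMIs, or 400 CPM (326 to 485). Chondrocyte-like cells held 4.47 CPM (3.92 to 5.08) in MGJ, rank 14 of 17, and 6.46 CPM (4.22 to 9.47) in MGJ2, rank 4 of 14. They were 0.0984-fold (0.0859 to 0.112) and 0.435-fold (0.282 to 0.642) the level of all other cells.

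Genes that followed each member most closely across classes were found by Pearson's r of log2(CPM + 10) over the 17 classes of MGJ and the 14 of MGJ2, ranked by the lower of both values. These are descriptions over classes that share a library. Cdkn1c was followed most closely by Shisa4 (r = 0.961 and 0.986), by Npr2, a receptor for C-type natriuretic peptide (0.959 and 0.981), and by the imprinted gene Peg3 (0.952 and 0.972). Cdkn2c was followed by the mitotic genes Prc1 (0.894 and 0.892), Cenpf (0.884 and 0.902) and Ska2 (0.884 and 0.922). Lower values were seen for Mdm2 with Slc31a1, a copper transporter (0.881 and 0.877), Cdkn1b with Mier1 (0.859 and 0.874), Gdf15 with Adap2 (0.823 and 0.9295), Cdkn2d with the centriole gene Sass6 (0.818 and 0.799), Cdkn1a with Phldb1 (0.797 and 0.862) and Ccng1 with Nfatc1 (0.769 and 0.793). Cdkn2a and Cdkn2b had too few UMIs in MGJ2 for this measure.

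Levels in chondrocyte-like cells were set against all other cells of the same library. A gene counted as higher or lower here when its ratio reached 1.5-fold in that direction, with at least 50 UMIs in both sets together. In MGJ 3 of the 10 members were higher, where 20.7% of all 14765 genes were, and 4 were lower, where 36% of all genes were. The higher ones were Cdkn1a (1000 against 428 CPM, 2.34-fold, 2.30 to 2.37), Cdkn1c (397 against 60.3 CPM, 6.58-fold, 6.38 to 6.79) and Cdkn2c (1.62-fold, 1.48 to 1.76). The lower ones were Cdkn1b, Cdkn2d (0.454-fold, 0.418 to 0.492), Mdm2 (76.3 against 189 CPM, 0.403-fold, 0.389 to 0.417) and Gdf15. In MGJ2 7 members were higher, beside 26.3% of 13065 genes, and 3 were lower, beside 43.3%. Cdkn1a (1010 against 326 CPM) was 3.099-fold (2.995 to 3.207) and Cdkn1c (244 against 3.57 CPM) 68.4-fold (58.6 to 80.3) the level elsewhere. Cdkn2a was 26.1-fold (18.4 to 37.3), Cdkn2b 15.6-fold (8.81 to 27.7), Cdkn2c 1.65-fold (1.32 to 2.05), Mdm2 1.59-fold (1.49 to 1.68) and Ccng1 1.78-fold (1.54 to 2.04). Cdkn1b, Cdkn2d (0.252-fold, 0.188 to 0.332) and Gdf15 were the lower ones, as in MGJ. In MGJ the members' counts were thus near what their number and the shares of all genes would give, whereas in MGJ2 more of them were higher. The median ratio of the members was 0.967 in MGJ, beside 0.871 over all genes, and 1.72 in MGJ2, beside 0.782. The other cells of MGJ2 were nearly all blood cells. Cdkn2a and Cdkn2b passed 1.5-fold in opposite directions under different settings in MGJ. Cdkn2a was 0.773-fold, but 0.308-fold against the stromal and vascular classes alone and 1.60-fold with every cell weighted equally, and Cdkn2b was 1.26-fold, but 0.523-fold and 2.499-fold. The Cdkn1c ratio of MGJ went to 13.1 when sub-clusters led by blood-cell genes were counted as chondrocyte-like, and to 2.69 when each cell was named by its own highest marker score. Against the stromal and vascular classes alone, 109 cells in MGJ2, Cdkn1c stood at 9.54-fold, Cdkn2a turned to 0.874-fold and Cdkn2d to 1.38-fold, Ccng1 stood at 1.01-fold, and 5 rather than 10 members differed by 1.5-fold. In MGJ the same setting gave 1.06-fold for Cdkn2c and 0.748-fold for Cdkn2d, both short of 1.5-fold. Naming each cell by its own score left 31 chondrocyte-like cells in MGJ2, and Mdm2 turned to 0.628-fold.

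The compartments themselves differed most in Cdkn1c, Cdkn2a and Cdkn2b. Stromal and vascular classes together held 286 CPM of Cdkn1c in MGJ against 5.86 CPM in the blood-cell classes, a ratio of 48.9 (42.8 to 56.1), and 195 against 1.91 CPM in MGJ2, a ratio of 102 (83.2 to 127). Cdkn2a held 13.2 against 0.615 CPM in MGJ (21.5-fold, 14.3 to 34.1) and 25.4 against 0.305 CPM in MGJ2 (83.3-fold, 49.4 to 150). Cdkn2b was 25.2-fold (17.4 to 38.1) and 17.2-fold (9.60 to 31.5) higher. With each cell named by its own highest marker score, the ratios of MGJ were smaller, 17.2 for Cdkn1c, 3.98 for Cdkn2a and 5.95 for Cdkn2b, and that of Cdkn2a in MGJ2 was 36.4. In the other direction, Cdkn1b stood at 0.568-fold (0.524 to 0.616) and 0.251-fold (0.209 to 0.299), Cdkn2d at 0.355-fold (0.330 to 0.382) and 0.231-fold (0.177 to 0.296), and Gdf15 at 0.155-fold (0.142 to 0.169) and 0.461-fold (0.321 to 0.644). In MGJ 6 members were higher and 4 lower, beside 41.6% and 26.2% of all genes. In MGJ2 5 were higher and 3 lower, beside 29.3% and 36.8%. Mdm2 stood at 0.378-fold (0.367 to 0.390) in MGJ and at 1.43-fold (1.35 to 1.51) in MGJ2.

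Chondrocyte-like cells were then divided by their own Col10a1, below 1000 CPM (low), up to 10000 CPM (moderate) and from 10000 CPM (high). There were 1640, 336 and 502 such cells in MGJ and 56, 25 and 53 in MGJ2. These stages are ranges of 1 gene and not cell types. In MGJ 56 cells lay within 1.2-fold of the lower bound and 58 within 1.2-fold of the upper one. The summed level of 8 other hypertrophy genes went from 6852 through 15991 to 30483 CPM in MGJ and from 16017 through 26983 to 39727 CPM in MGJ2. Not all of the 8 followed the sum. From low to high, 7 were higher and 0 lower by 1.5-fold in MGJ, but 4 were higher and 2 lower in MGJ2, and from moderate to high in MGJ2 2 were higher and 1 lower, with a median ratio of 0.981. Mmp13, a collagenase, stood at 394.9, 300.0 and 1345 CPM in the stages of MGJ and at 466, 1839 and 2727 CPM in those of MGJ2. Cycling cells made up 6.83%, 1.19% and 0.797% of the stages in MGJ.

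**Figure D2:**
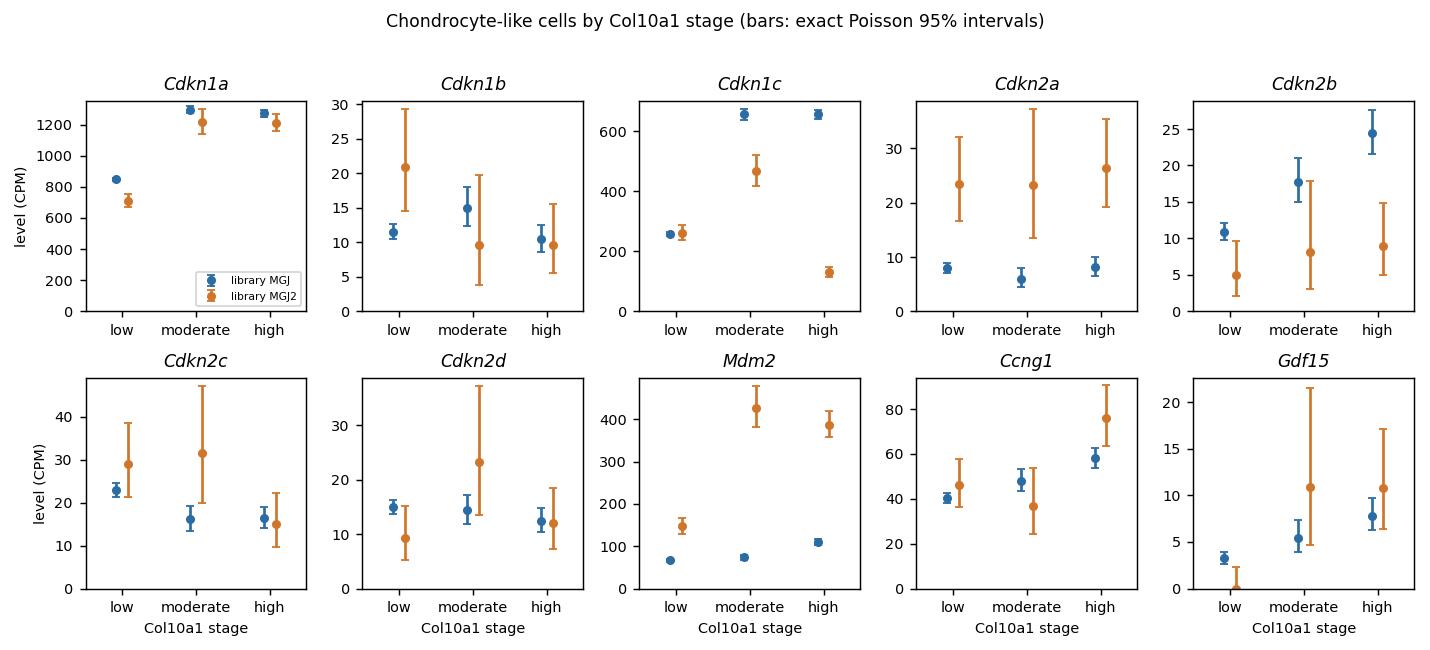
Level in CPM (vertical axis, from 0) of each of the 10 genes in chondrocyte-like cells of low, moderate and high Col10a1, for libraries MGJ (blue) and MGJ2 (orange); bars are exact Poisson 95% intervals. Cdkn1a is higher in the moderate and high stages than in the low stage of both libraries, while Cdkn1c at high Col10a1 stands at 656 CPM in MGJ and at 130 CPM in MGJ2, where other bounds turned its ratio to the low stage.

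Cdkn1a was lowest in cells of low Col10a1 and level from the moderate stage on. Its levels were 849 CPM (839 to 859), 1297 CPM (1272 to 1322) and 1272 CPM (1250 to 1293) from low to high in MGJ, and 709 CPM (669 to 751), 1219 CPM (1140 to 1301) and 1212 CPM (1159 to 1266) in MGJ2. The high stage exceeded the low one 1.498-fold (1.467 to 1.529) in MGJ, just short of the 1.5-fold limit, and 1.71-fold (1.59 to 1.84) in MGJ2. Between the moderate and high stages the ratio was 0.980 (0.955 to 1.01) in MGJ and 0.994 (0.918 to 1.08) in MGJ2, and both intervals included 1. The immediate-early genes, which tissue digestion can induce, stood at 2141, 2184 and 2751 CPM summed over 9 genes in the 3 stages of MGJ and at 4055, 4816 and 4780 CPM in those of MGJ2. Their part in the Cdkn1a levels was not tested.

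Cdkn1c was higher in the moderate than in the low stage of MGJ, and its levels in the stages are given for each library. In MGJ its levels were 258 CPM (252 to 263), 656 CPM (639 to 674) and 656 CPM (641 to 672), with a ratio of high to moderate of 1.0 (0.965 to 1.04), an interval that includes 1. In MGJ2 they were 262 CPM (237 to 288), 467 CPM (419 to 520) and 130 CPM (113 to 148), so that the high stage stood at 0.277-fold (0.233 to 0.330) the moderate and 0.495-fold (0.419 to 0.585) the low stage. The low and moderate stages of MGJ2 held 1 cycling cell each, and these 2 cells carried 141 of the 983 Cdkn1c UMIs of chondrocyte-like cells. Without cycling cells the ratio of high to low in MGJ2 was 0.481. The ratio of moderate to low was not taken without them. How far the moderate level of MGJ2, from 25 cells, rests on its 1 cycling cell was thus not tested. With the bounds moved to 500 and 5000 CPM it turned to 1.27, so the direction in these 134 cells rests on where the stages are divided.

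The INK4 genes showed no common course. Cdkn2b went in MGJ from 10.9 CPM (9.85 to 12.1) through 17.8 CPM (14.96 to 20.96) to 24.4 CPM (21.5 to 27.6), 2.24-fold (1.90 to 2.63) from low to high, but 1.24-fold with each cell named by its own highest marker score. In MGJ2 it had 8, 6 and 15 UMIs, too few for a ratio to count. Cdkn2a had a ratio of 1.02 (0.790 to 1.31) between high and low in MGJ and 1.13 (0.714 to 1.79) in MGJ2, intervals that include 1. With each cell named by its own highest marker score, its ratio in MGJ was 0.674, outside that interval. Cdkn2c was 0.717-fold (0.604 to 0.846) in MGJ and 0.518-fold (0.306 to 0.859) in MGJ2, where it turned to 1.04-fold once the cells of highest doublet score were removed. Cdkn2d was 0.827-fold (0.677 to 1.004) in MGJ. Without cycling cells the ratios of MGJ were 0.956 for Cdkn2c and 1.13 for Cdkn2d. Cdkn1b was 0.903-fold (0.723 to 1.12) in MGJ and 0.459-fold (0.236 to 0.854), from 50 UMIs, in MGJ2, where it was 0.678-fold with every cell weighted equally.

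The p53 targets Mdm2, Ccng1 and Gdf15 each stood above their low-stage level at high Col10a1 in MGJ, by more than counting error. Mdm2 stood at 66.6 CPM (63.9 to 69.4), 74.1 CPM (68.2 to 80.4) and 110 CPM (103 to 116) in MGJ and at 147 CPM (129 to 167), 428 CPM (382 to 478) and 388 CPM (358 to 419) in MGJ2. High against low was 1.65-fold (1.53 to 1.77) and 2.63-fold (2.27 to 3.07). With each cell named by its own highest marker score, which left 76 cells in the high stage of MGJ, the Mdm2 ratio there was 1.06, short of 1.5-fold, and that of Gdf15 was 4.98. Ccng1 was 1.44-fold (1.31 to 1.59) and 1.65-fold (1.23 to 2.23), the latter 1.23-fold at a clustering resolution of 2. Gdf15 went from 3.22 CPM (2.65 to 3.88) through 5.42 CPM to 7.83 CPM (6.23 to 9.72) in MGJ, 2.43-fold (1.80 to 3.26), and in MGJ2 had 0 UMIs in the low stage and 18 in the high one. In all, 4 members were higher and 0 lower in MGJ, beside 17.2% and 20.7% of 11931 genes. In MGJ2 3 of the 7 members with enough UMIs were higher and 3 lower, beside 15.5% and 19.8% of 5851 genes. The median ratio of the members was 1.47 in MGJ and 1.13 in MGJ2, and that of all genes 0.975 in both.

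Other genes of the pathways gave a mixed picture across the stages. At high against low Col10a1, 17.2% of all genes were higher and 20.7% lower in MGJ, and 15.5% and 19.8% in MGJ2. Of 23 other p53 targets, 7 of the 21 measured in MGJ were higher and 5 lower at high Col10a1, and 5 of 11 were higher and 1 lower in MGJ2. The higher ones included Trp53inp1, a p53 cofactor (38.6 against 7.38 CPM, 5.23-fold, 4.46 to 6.14, in MGJ; 1.74-fold, 1.15 to 2.68, in MGJ2), Plk2, a stress-induced kinase (2.59-fold, 2.46 to 2.74, and 1.69-fold, 1.42 to 2.02), and Btg2, an antiproliferative gene (1.56-fold, 1.51 to 1.62, and 4.64-fold, 4.0 to 5.41). Sesn2, a stress-induced inhibitor of mTORC1 signalling, was lower, at 0.493-fold (0.421 to 0.575) and 0.517-fold (0.309 to 0.848). Trp53 itself stood at 0.878-fold (0.777 to 0.991) and 1.17-fold (0.790 to 1.73). Of 12 CDKs, cyclins and pocket proteins, 1 was higher and 7 lower in MGJ, and 1 of 6 measured was higher and 2 lower in MGJ2. Ccnd1, the D-type cyclin that partners Cdk4 and Cdk6, was 0.455-fold (0.406 to 0.510) and 0.303-fold (0.213 to 0.424), and Cdk4 was 0.583-fold (0.529 to 0.641) and 0.633-fold (0.453 to 0.878).

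Within the chondrocyte-like cells of MGJ, sub-clusters made without the 10 members differed in Cdkn1a and Cdkn1c. They are called by their leading genes. Cdkn1a stood at 1294 CPM (1272 to 1317) in the Col10a1 and Aldh1a3 sub-cluster and at 1317 CPM (1297 to 1337) in the Ppa1 and Slurp1 sub-cluster, at 841 CPM (828 to 855) in the largest, led by Penk and Tfpi2, and at 413 CPM (395 to 432) in that led by Smim5 and Id1. Cdkn1c stood in the same sub-clusters at 520 CPM (506 to 534), 722 CPM (707 to 737), 187 CPM (181 to 193) and 593 CPM (572 to 616). The Smim5 and Id1 sub-cluster, 277 cells, thus combined the lowest Cdkn1a with Cdkn1c above the chondrocyte-like mean of 397 CPM. The 174 cells led by H2-Ab1 and Nrn1 held Cdkn1a near the chondrocyte-like mean of 1000 CPM, at 994 CPM (959 to 1030), with 54.8 CPM (46.8 to 63.7) of Cdkn1c. The 52 cells led by Hp and Saa3, acute-phase genes, were low in both, with 533 CPM (491 to 577) and 30.4 CPM (21.1 to 42.5). Cdkn1c, although kept out of the clustering, was among the leading genes of the Ppa1 and Slurp1 sub-cluster. Summed immediate-early genes were highest in the Smim5 and Id1 sub-cluster, 4096 CPM beside 2269 CPM over all chondrocyte-like cells of MGJ, and their part in its Cdkn1a level was not tested.

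**Figure D3:**
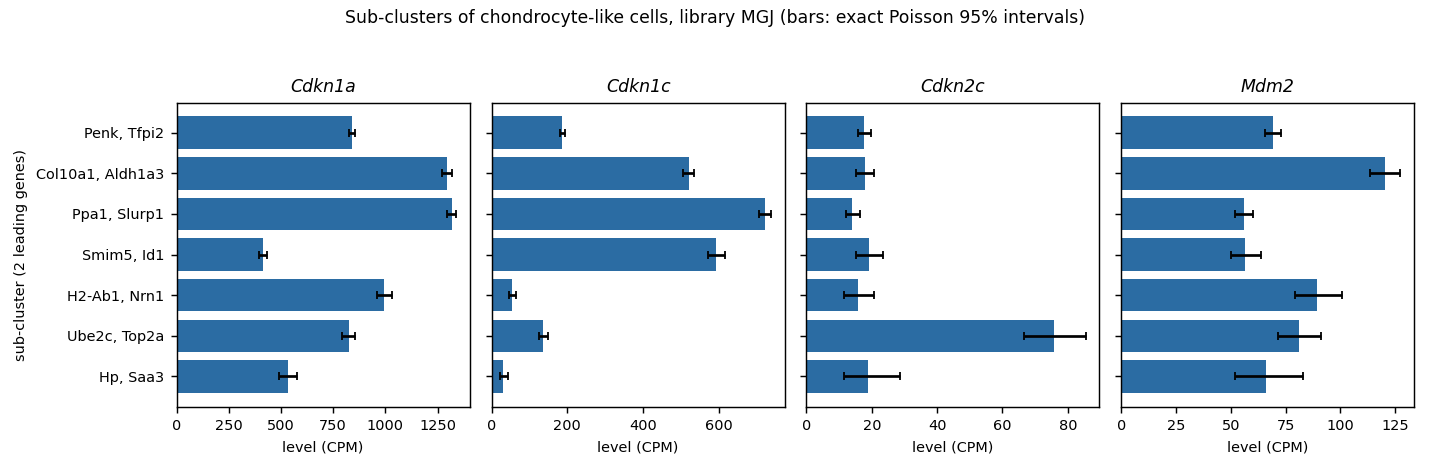
Levels in CPM (horizontal axes, from 0) of Cdkn1a, Cdkn1c, Cdkn2c and Mdm2 in the sub-clusters of chondrocyte-like cells of library MGJ, each named by its leading genes; the lines on the bars are exact Poisson 95% intervals. The Smim5 and Id1 sub-cluster has the lowest Cdkn1a, 413 CPM, with 593 CPM of Cdkn1c, and the H2-Ab1 and Nrn1 sub-cluster has 994 CPM of Cdkn1a with 54.8 CPM of Cdkn1c.

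Cycling cells, those with at least 3 UMIs and 1000 CPM over 20 G2/M genes, numbered 120 among chondrocyte-like cells of MGJ (4.84%) and 2 in MGJ2, for which no ratio was taken. Those 2 cells of MGJ2 held 141 of the 983 Cdkn1c UMIs of its chondrocyte-like cells and 124771 of their 4022029 UMIs in all. For Cdkn1c this is the opposite direction to the ratio of MGJ below, though from 2 cells. In MGJ 3 members were higher in cycling than in other chondrocyte-like cells, where 19.6% of 12253 genes were, and 2 were lower, where 12.2% were. Of the 120 cycling cells, 112 were in the low Col10a1 stage, 4 in the moderate and 4 in the high one. The sets thus also differed in stage, and its part in the ratios below was not tested. Cdkn2c stood at 77.7 CPM in cycling and 16.8 CPM in other cells, 4.62-fold (3.996 to 5.32), and Cdkn2d at 58.5 and 11.5 CPM, 5.09-fold (4.30 to 6.01). Cdkn2a stood at 20.4 and 6.86 CPM, 2.98-fold (2.25 to 3.88), from 67 UMIs in cycling cells. Cdkn1c was lower, at 139 against 414 CPM, 0.336-fold (0.305 to 0.369), and so was Cdkn2b, at 8.84 against 15.02 CPM, 0.588-fold (0.391 to 0.852), though 0.792-fold with each cell named by its own highest marker score. Cdkn1a stood at 838 against 1011 CPM, 0.829-fold (0.797 to 0.861), Mdm2 at 1.10-fold (0.971 to 1.246), Ccng1 at 0.768-fold (0.631 to 0.927) and Cdkn1b at 1.06-fold (0.753 to 1.46). After thinning to 2000 UMIs, 18.3% (11.7 to 26.6) of cycling and 2.75% (2.12 to 3.49) of other chondrocyte-like cells had a Cdkn2c UMI, beside 0.0718% (0.00182 to 0.3996) of neutrophil-like cells; unthinned the shares were 70.8%, 27.01% and 0.185%. For Cdkn2a the thinned shares, 3.48% (0.956 to 8.67) of cycling and 1.59% (1.12 to 2.18) of other cells, overlapped. The median depth was 27312 UMIs in cycling and 20950 UMIs in other chondrocyte-like cells.

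Cdkn2c and Cdkn2d were also higher in cycling cells of the other classes with at least 30 cycling cells, 5 classes in MGJ and 3 in MGJ2, except that Cdkn2c had under 50 UMIs in pre-B cell-like cells of MGJ. Cdkn2c was 2.78-fold (1.37 to 6.22) in myeloid progenitor-like cells of MGJ and 24.1-fold (11.5 to 60.8) in granule-rich neutrophil-like cells of MGJ2, the ends of its range. Cdkn2d ran from 1.84-fold (1.61 to 2.11) in granule-rich neutrophil-like cells to 7.39-fold (3.96 to 15.6) in pre-B cell-like cells, both of MGJ2. Of the cycling granule-rich neutrophil-like cells, 121 of 126 in MGJ and 154 of 156 in MGJ2 lay in the cluster led by Camp and Chil3. The others of that class were mostly of a cluster led by Ltf and Ngp. The ratios of that class, here and below, thus nearly set these clusters against each other, and the part of cycling was not tested. Cdkn1a went different ways. It was higher in cycling granule-rich neutrophil-like cells, at 206 against 77.6 CPM in MGJ (2.65-fold, 2.17 to 3.25) and 167 against 45.7 CPM in MGJ2 (3.66-fold, 2.99 to 4.49), and in cycling myeloid progenitor-like cells, 1.59-fold (1.40 to 1.81) and 2.28-fold (2.01 to 2.59). It was also higher in cycling osteoclast-like cells of MGJ, 1.83-fold (1.45 to 2.32). These cells also held more of the macrophage markers, 2254 against 404 CPM, and the part of this difference was not tested. In pre-B cell-like cells Cdkn1a was 0.393-fold (0.254 to 0.611) in MGJ and 1.06-fold (0.736 to 1.55) in MGJ2. In MGJ the macrophage markers stood at 20.3 CPM in cycling and 832 CPM in other pre-B cell-like cells, 39 cells. The part of that difference was not tested either. Cycling fibroblast or tenocyte-like cells resembled the cycling chondrocyte-like cells of MGJ in Cdkn1c, 21.5 against 56.3 CPM (0.381-fold, 0.288 to 0.496), in Cdkn2b, 0.643-fold (0.478 to 0.850), and in Cdkn2a, 1.55-fold (1.26 to 1.90), while Cdkn1a was 1.43-fold (1.33 to 1.53).

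**Figure D4:**
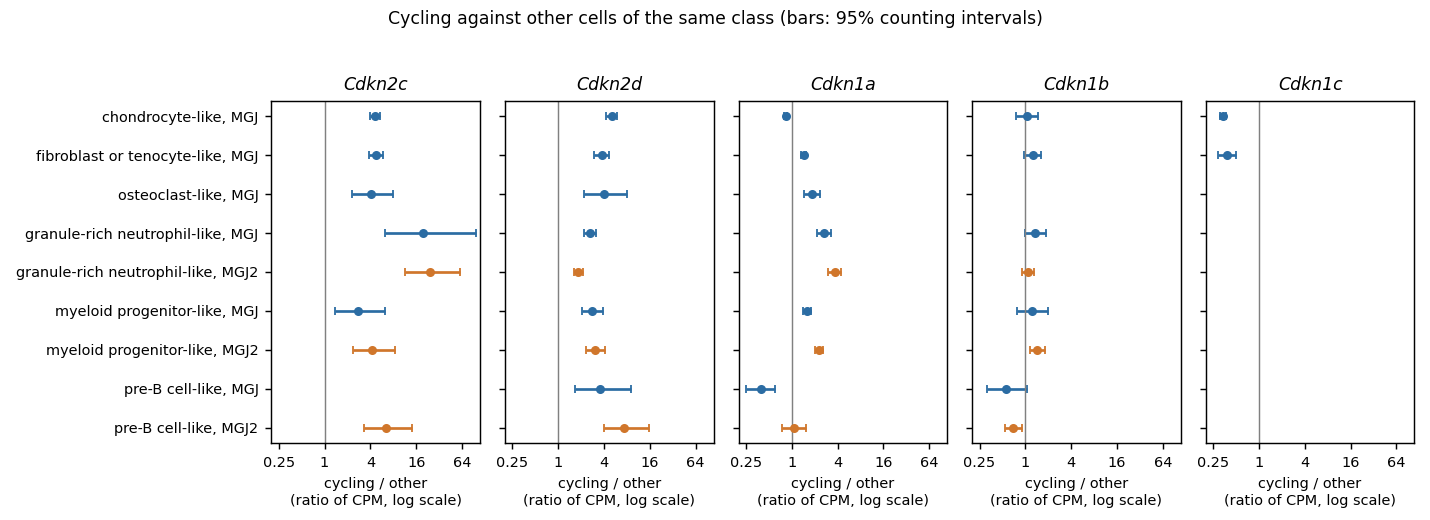
Ratio of CPM of cycling to other cells of the same class (horizontal axis, log scale; the line marks 1) for Cdkn2c, Cdkn2d, Cdkn1a, Cdkn1b and Cdkn1c where they had at least 50 UMIs in both sets together (blue, library MGJ; orange, MGJ2); bars are 95% counting intervals. Every Cdkn2c and Cdkn2d point lies above 1, from 2.78 to 24.1 and from 1.84 to 7.39, while Cdkn1c in chondrocyte-like and fibroblast or tenocyte-like cells lies at 0.336 and 0.381.

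Of the other p53 targets, 3 of 21 measured were higher and 4 lower in cycling chondrocyte-like cells, beside 19.6% and 12.2% of all genes. Ddb2, a DNA repair gene, was 2.18-fold (1.15 to 3.84) from 14 UMIs in cycling cells. Trp53inp1, which was higher at high than at low Col10a1, was 0.285-fold (0.155 to 0.480). The part of stage in that ratio was not tested. Trp53 was 1.57-fold (1.34 to 1.84) and the checkpoint kinase Chek1 4.02-fold (2.72 to 5.81), among 4 higher and 0 lower of 7 genes of the p53 family and its regulators. Of 12 CDKs, cyclins and pocket proteins, 6 were higher and 0 lower, led by Ccne1 (18.7-fold, 11.2 to 31.7), Ccne2 (7.24-fold, 4.69 to 10.97), the S-phase transcription factor E2f1 (6.36-fold, 4.44 to 8.98) and Rbl1 (6.33-fold, 4.34 to 9.08).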

How the data were processed

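Single-cell RNA-seq was performed by the authors on callus cells freed by enzyme digestion, with 10x Chromium 3′ chemistry aiming at 5000 cells a library. The authors deposited raw UMI counts whose headers name Cell Ranger 4.0.0, and GRCm38 and Seurat are named in the submitters' processing notes. MGJ held 14295 barcodes (135304426 UMIs, median 5026) and MGJ2 8009 (61130834, median 4952). Barcodes with under 200 genes or over 20% mitochondrial UMIs were removed. Scrublet called 0 doublets in MGJ, where it did not work, and 223 in MGJ2, which were removed. Joint Leiden clusters (scanpy 1.11.5, resolution 1, no integration; 63 listed genes kept out, the members among them) were named from 24 marker lists, and sub-clusters (resolution 0.5) led by other cells' markers were left unnamed. Summed UMIs gave CPM and ratios (Python 3.11.15, scipy 1.17.1), checked on simulated data. Both libraries lack a group, so nothing was tested between samples. The members and gene lists were chosen with earlier results of these data known. All 10 members were described in each class, and of each other list the comparison rule allowed 4 genes a direction, those with at least 50 UMIs and the same direction in both libraries (or in MGJ, for cycling cells) and the largest smaller log2 ratio; Trp53 in the stages and the leading genes of sub-clusters fell outside it and were chosen after their values were seen. Mmp13 in the stages also fell outside the comparison rule. Promoter windows were from RefSeq (GRCm38.p6), and Cdkn1c had no window there. A set of 18 alternatives was planned and 2 were added after seeing the data (removing the highest doublet scores, and keeping the chondrocyte sub-clusters led by blood-cell genes).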

Additional observations from a re-analysis of the deposited data

Results flagged for a closer look

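Barcodes that the filters removed still held transcripts of the 10 genes, above what a count of 0 allows. In MGJ the 835 removed barcodes held 427 UMIs of the members, 296 CPM (269 to 326), beside 1146 CPM in the kept cells. In MGJ2 the 426 removed barcodes, doublet calls included, held 2188 UMIs, 710 CPM (681 to 741), beside 796 CPM in the kept cells. The levels in the removed barcodes were lower than those in the kept cells of the same library by more than counting error.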

How the results depend on the processing

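Of 764 recomputed member ratios, 604 stayed within their counting interval, 155 left it and 5 that had passed the fold turned. Of 94 recomputed counts of members past the fold, 91 stayed within 1.5 times. All 5 ratios that turned and all 3 counts that moved were in MGJ2. When each cell was named by its own highest marker score, 31 chondrocyte-like cells remained there and Mdm2 against all other cells became 0.628; the stages could not be compared. With the expected share of highest doublet scores removed, Cdkn2c became 1.04 between high and low Col10a1. Against stromal and vascular classes only, Cdkn2a became 0.874 and Cdkn2d 1.38 in chondrocyte-like cells, and 5 members rather than 10 passed the fold. With bounds of 500 and 5000 CPM, Cdkn1c became 1.27 between high and low Col10a1 and 3 members rather than 6 passed; a fold of 2 also left 3. The cause was not tested. Without the 50 most abundant genes in the totals, the median ratio of all genes shifted by at most 0.096 on the log2 scale. In MGJ no ratio past the fold turned, but in chondrocyte-like cells against all others Cdkn1c ranged from 2.69 to 13.1, Cdkn2a from 0.308 to 1.60 and Cdkn2b from 0.523 to 2.499. Names given cell by cell, from the best-scoring marker list, also took Mdm2 to 1.06 and Cdkn2b to 1.24 between high and low Col10a1 in MGJ, and chondrocyte-like cells from first to second rank there for Cdkn1a and Cdkn1c. Of 190 recomputed ranks of chondrocyte-like cells 76 changed, and thinning to 1000 UMIs moved 15 of 20 shares beyond their intervals. Depth limited Cdkn2a and Cdkn2b in MGJ2, at 150 and 54 UMIs. No paired analysis was possible because the labels give neither library a group, and their numbers only name them in order.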
